A study of Mus musculus with 19 samples.

Results

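Slc38a4, Slc38a1 and Slc38a2 are neighbouring genes of mouse chromosome 15 that encode sodium-coupled neutral amino acid transporters. They were chosen by name, as 3 of the 22521 genes listed with total RNA levels in mouse morulae and in extra-embryonic ectoderm (ExE). RNA-seq had been made of whole morulae and of ExE, the trophoblast tissue that adjoins the epiblast, at embryonic day 6.5 (E6.5). Maternal knockout (matKO) embryos came from Gdf9-Cre, Eed-fl/fl mothers, in which Cre is expressed in the growing oocyte, and control (CTR) embryos came from Eed-fl/fl mothers without Cre. All fathers were wild type, and all embryos were B6/129 x PWK hybrids, so that sequence variants tell the maternal (B6/129) from the paternal (PWK) allele. There were 2 matKO and 2 CTR morula libraries, and 4 matKO female, 5 matKO male, 2 CTR female and 2 CTR male ExE libraries. The labels do not say how many embryos went into a library. matKO embryos still inherit a wild-type paternal Eed allele, so they are heterozygous and it is the oocyte that lacks Eed.

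Eed encodes a core subunit of Polycomb repressive complex 2, which places the histone mark H3K27me3. In mouse, a small class of genes carries H3K27me3 from the oocyte on the maternal allele and is then transcribed from the paternal allele, mainly in trophoblast. Slc38a4 (SNAT4) is a member of this class and a placental transporter of neutral and cationic amino acids. Slc38a1 (SNAT1) carries glutamine and other small neutral amino acids, and Slc38a2 (SNAT2), a transporter of alanine and similar amino acids, is induced when cells are starved of amino acids. The comparison of matKO with CTR embryos asks what these neighbours do, in total and per parental allele, when the oocyte lacks Eed.

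In the mm9 build, the deposited intervals of all 3 genes lay on the minus strand of chromosome 15. Slc38a1 (ENSMUSG00000023169) was listed at 96401849 to 96407243, Slc38a2 (ENSMUSG00000022462) at 96517823 to 96520659 and Slc38a4 (ENSMUSG00000022464) at 96825254 to 96827522. These intervals cover part of each gene. Between listed starts, Slc38a4 was 307 kb from Slc38a2 and 423 kb from Slc38a1. The 250 bases before each annotated start of Slc38a4 and Slc38a2 (not Slc38a1) are shown, since these genes differ there in CpG content, a feature of promoters that the choice of genes did not use. The sequences are from RefSeq (GRCm38.p6, minus strand, 5′ to 3′), and capitals mark each CpG.
Slc38a4 chr15:97055957-97056206: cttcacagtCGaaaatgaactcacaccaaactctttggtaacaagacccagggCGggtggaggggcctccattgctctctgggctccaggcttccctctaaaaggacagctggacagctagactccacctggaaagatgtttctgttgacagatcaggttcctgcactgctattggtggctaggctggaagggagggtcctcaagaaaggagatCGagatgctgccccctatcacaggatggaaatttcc
Slc38a4 chr15:97031214-97031463: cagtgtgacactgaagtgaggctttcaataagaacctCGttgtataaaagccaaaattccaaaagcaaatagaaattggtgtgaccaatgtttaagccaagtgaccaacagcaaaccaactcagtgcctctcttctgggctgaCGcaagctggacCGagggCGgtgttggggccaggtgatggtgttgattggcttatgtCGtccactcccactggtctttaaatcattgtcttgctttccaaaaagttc
Slc38a4 chr15:97020360-97020609: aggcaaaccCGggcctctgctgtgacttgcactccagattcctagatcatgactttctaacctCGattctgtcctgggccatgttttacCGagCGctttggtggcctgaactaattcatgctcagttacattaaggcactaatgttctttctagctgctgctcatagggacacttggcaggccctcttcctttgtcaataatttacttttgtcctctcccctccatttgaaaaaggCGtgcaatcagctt
Slc38a2 chr15:96699729-96699978: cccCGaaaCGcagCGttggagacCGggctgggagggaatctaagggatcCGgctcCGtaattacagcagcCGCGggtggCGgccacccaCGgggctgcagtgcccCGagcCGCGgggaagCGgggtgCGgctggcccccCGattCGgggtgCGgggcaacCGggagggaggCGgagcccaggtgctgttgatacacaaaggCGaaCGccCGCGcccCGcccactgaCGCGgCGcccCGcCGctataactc
The first Slc38a4 window held 3 CpG and the others 5 each, against 30 in the Slc38a2 window, where G and C made up 72% of the bases. The median was 6 CpG over 32851 windows of the same length, and 94.1% of windows held fewer CpG than that of Slc38a2. For the first Slc38a4 window, 37.8% of windows held as few or fewer. On either strand, GGGCGG was present in the Slc38a2 window and in the first and second Slc38a4 windows, and is found in 32.7% of all windows. CCAAT was present in the first and second Slc38a4 windows (33.8% of all windows), and TATAA in the second Slc38a4 window and that of Slc38a2 (22.8%). TGATGCAA was in none of the windows shown (0.791% of all windows).

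The maternal share of Eed reads was 16.02% and 20.9% in matKO morulae and 37.7% and 46.0% in CTR morulae. In ExE, by allelic RPKM, it was 13.7% ± 2.27 in matKO (SD, n = 9) and 45.8% ± 1.68 in CTR (SD, n = 4). All 10 listed ExE and trophoblast stem markers averaged over 1 RPKM in ExE of both genotypes. Of the 8 listed epiblast markers, 6 in matKO and 5 in CTR did so too, so this level alone does not separate ExE from epiblast. The deposited allelic reads came to 3327373 to 5109159 per morula library and 4696355 to 9828943 per ExE column, whereas the depth behind total RPKM is unknown. In ExE, matKO males 4 and 5 stood apart in some markers. Esrrb, a trophoblast stem cell factor, was at 0.310 RPKM in matKO male 4 and 3.77 RPKM in matKO male 5. In the other 11 libraries it was at 25.99 to 55.8 RPKM. Cdx2 was at 1.25 and 1.76 RPKM in them, against 3.20 to 6.56 RPKM in the others. Elf5 was at 185 and 204 RPKM, within the 178 to 277 RPKM of the others. The 10 listed ExE and trophoblast stem markers summed to 936 RPKM in matKO male 4 and 2017 RPKM in matKO male 5. They summed to 1417 to 2669 RPKM in the other matKO libraries and 2100 to 2627 RPKM in CTR. In matKO male 5 the 12 visceral endoderm markers summed to 66.2 RPKM, with Ttr at 14.1 RPKM and Apoa1 at 15.3 RPKM, against 1.18 to 15.001 RPKM in the other matKO libraries and 6.94 to 10.2 RPKM in CTR. Totals of the 3 transporters in ExE, over both sexes, are therefore also given without these libraries. Totals by sex, of neighbours and of gene lists are given with all libraries only.

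Total Slc38a4 RNA averaged 1.50 times its CTR level in matKO ExE, a difference that passed the exact test of this gene alone but not the test across all genes. In matKO females it was at 107, 77.5, 93.8 and 129 RPKM and in matKO males at 99.5, 133, 95.9, 106 and 121 RPKM. In CTR females it was at 76.8 and 80.96 RPKM and in CTR males at 66.9 and 61.3 RPKM. All matKO libraries except matKO female 2 lay above all 4 CTR libraries. The means were 107 ± 18.01 RPKM in matKO (SD, n = 9) and 71.5 ± 9.02 RPKM in CTR (SD, n = 4). With sex held fixed, the difference was 35.0 RPKM (exact two-sided permutation within sex, p = 0.00952 over 315 arrangements, of which 0.00317 is the smallest possible p). Fitted across all genes on log2(RPKM + 1), the log2 fold change was 0.56 (SE 0.12, unadjusted p = 0.000647), and it did not pass the threshold of 0.05 after Benjamini-Hochberg adjustment (limma adjusted p = 0.104). In that fit 0.0504% of 9915 genes passed, and 16.1% had an unadjusted p under 0.05 (limma). Without matKO males 4 and 5 the log2 fold change was 0.55 (limma adjusted p = 0.0774). In bulk tissue, more cells of a type and more RNA per cell cannot be told apart.

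**Figure D1:**
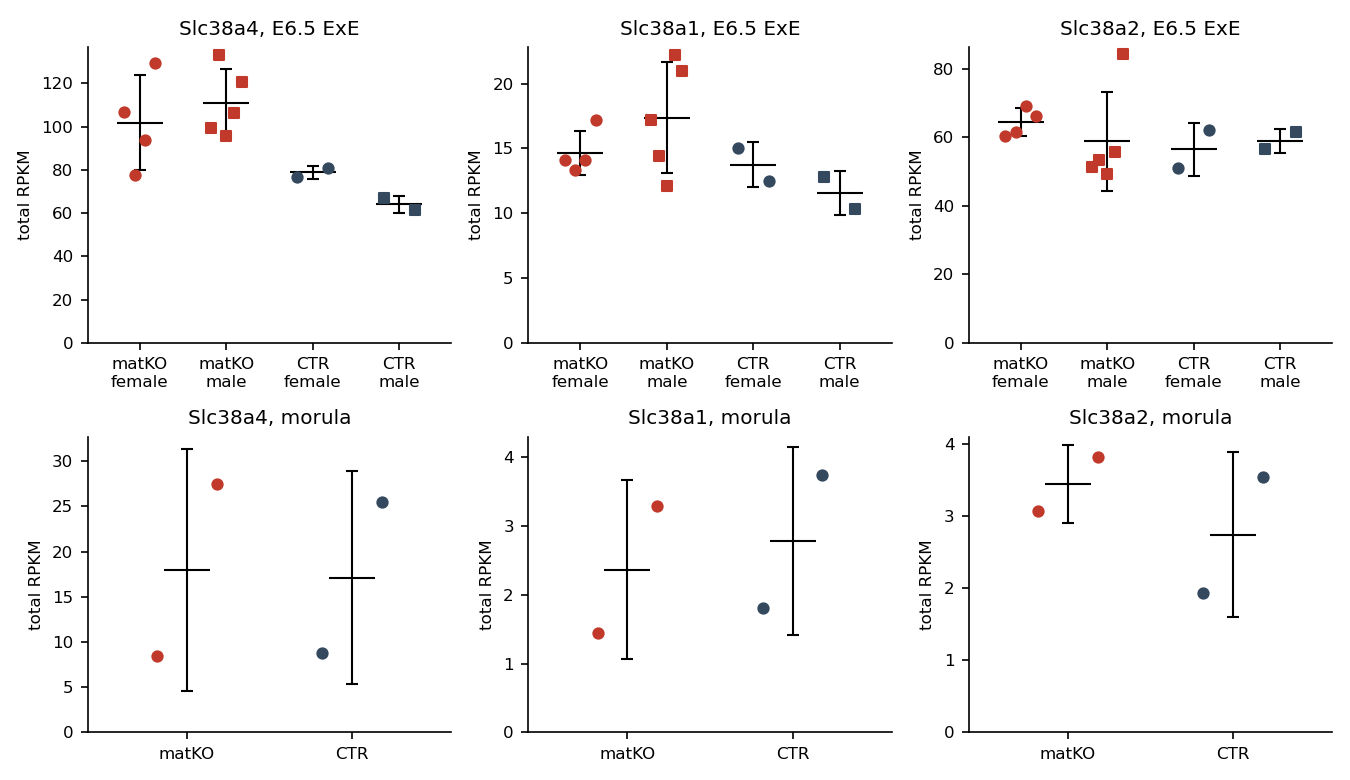
Total RPKM (vertical axes, from 0) of Slc38a4, Slc38a1 and Slc38a2 in each library of E6.5 ExE (top row, circles for females and squares for males) and of morulae (bottom row), with matKO in red and CTR in dark blue. Black lines are group means with SD; Slc38a4 in ExE is the only panel where nearly all matKO libraries (8 of 9) lie above all CTR libraries.

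By sex, Slc38a4 averaged 111 ± 15.5 RPKM in matKO males (SD, n = 5), against 64.1 ± 3.99 RPKM in CTR males (SD, n = 2). All 5 matKO males lay above both CTR males, a difference of 47.0 RPKM (exact two-sided permutation p = 0.0476, the smallest possible). Females averaged 102 ± 21.9 RPKM in matKO (SD, n = 4) and 78.9 ± 2.91 RPKM in CTR (SD, n = 2). The female groups overlapped, with a difference of 22.99 RPKM (exact two-sided permutation p = 0.267, smallest possible 0.0667). Across all genes neither sex passed, with a log2 fold change of 0.34 in females (limma adjusted p = 0.997) and 0.78 in males (0.211), and their difference did not pass (limma adjusted p = 0.990).

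The maternal Slc38a4 allele was expressed in all 9 matKO ExE libraries. Its deposited allelic RPKM was 18.7, 10.4, 10.5 and 36.2 in matKO females and 15.1, 42.1, 23.2, 31.6 and 32.1 in matKO males. It was listed at 0 in CTR female 1, and was 4.48 in CTR female 2, 0.252 in CTR male 1 and 0.136 in CTR male 2. The groups did not overlap: the lowest matKO library had more than the highest CTR library. Means were 24.4 ± 11.6 RPKM in matKO (SD, n = 9) and 1.22 ± 2.18 RPKM in CTR (SD, n = 4). The maternal allele rose by 3.74 on the log2(RPKM + 1) scale (SE 0.45, limma adjusted p = 0.00602, with 0.166% of 9666 genes passing). The exact two-sided permutation within sex gave p = 0.00317, the smallest possible. Leaving out any single library kept the limma adjusted p between 0.00109 and 0.0492, and 1 of 20 alternatives lost the call. With a pseudocount of 0.1 the log2 change was 5.59, and 5.54 for the ratio to the paternal allele. Without matKO males 4 and 5 together the log2 change was 3.67 (limma adjusted p = 0.0237) for the maternal allele and 3.64 (0.0476) for its ratio to the paternal allele.

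No difference was detected in the paternal allele. It was at 70.0, 46.8, 65.7 and 65.8 RPKM in matKO females and 52.2, 50.8, 41.4, 41.8 and 63.4 RPKM in matKO males, against 62.0 and 52.2 RPKM in CTR females and 47.4 and 51.1 RPKM in CTR males. The genotypes overlapped, with means of 55.3 ± 11.1 RPKM in matKO (SD, n = 9) and 53.2 ± 6.23 RPKM in CTR (SD, n = 4). The log2 fold change was 0.05 (SE 0.13, limma adjusted p = 0.906, exact two-sided permutation p = 0.622). As a fold this is 1.04, with an approximate 95% interval of 0.864 to 1.25. In that fit 1.02% of genes passed, while 0 of 9293 passed when autosomal genes were fitted alone (limma). The sum of both alleles averaged 79.8 ± 15.6 RPKM in matKO and 54.4 ± 6.29 RPKM in CTR (SD, n = 9 and 4), a ratio of 1.47 beside 1.50 for total RPKM.

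**Figure D2:**
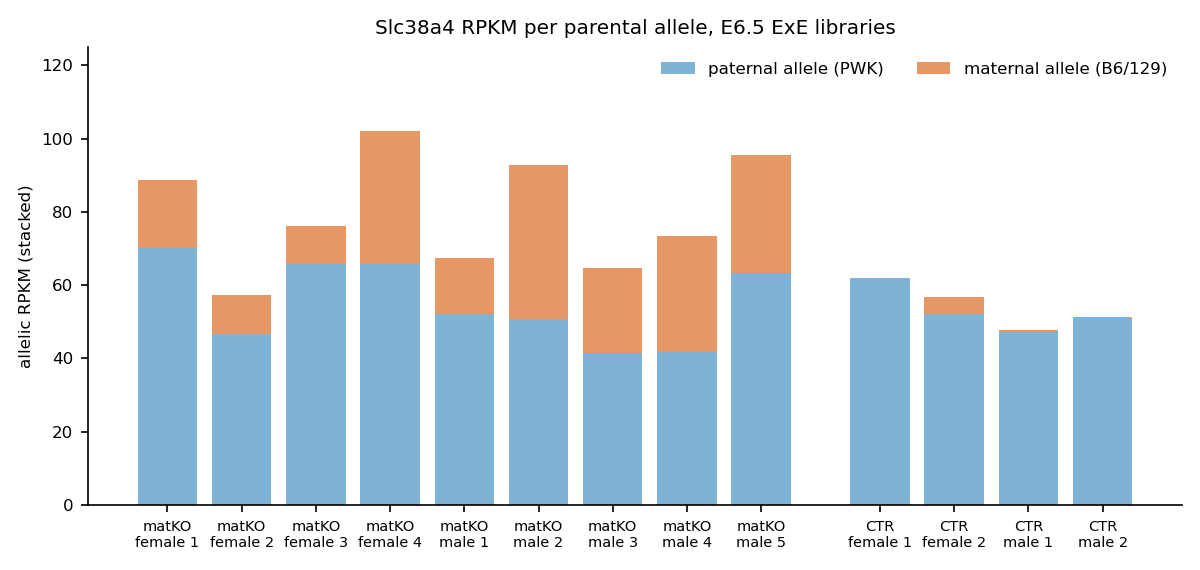
Allelic RPKM of Slc38a4 in each E6.5 ExE library, with the paternal allele (blue, from 0) and the maternal allele (orange) stacked, matKO libraries left and CTR libraries right. The paternal part lies between 41.4 and 70.0 RPKM throughout, and the maternal part is at 10.4 RPKM or more in matKO libraries and at 4.48 RPKM or less in CTR libraries.

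Expressed as a share of both alleles, maternal Slc38a4 made up 21.1%, 18.2%, 13.8% and 35.5% of allelic RPKM in matKO females and 22.5%, 45.3%, 35.9%, 43.0% and 33.6% in matKO males. It made up 0% and 7.89% in CTR females and 0.528% and 0.266% in CTR males. Every matKO library exceeded every CTR library, and none of the 9 reached 50%. The ratio of maternal to paternal RPKM ran from 0.160 to 0.827 in matKO libraries and from 0 to 0.0857 in CTR libraries. On log2((maternal + 1)/(paternal + 1)) the change was 3.69 (SE 0.47, limma adjusted p = 0.0138, with 0.176% of 9666 genes passing; exact two-sided permutation p = 0.00317). The limma call was lost in 4 of 22 alternatives, among them without CTR male 1 (adjusted p = 0.0790) or CTR male 2 (0.118), with changes of 3.75 and 3.62, and by edgeR on the deposited read counts (4.76, adjusted p = 0.0664). DESeq2 on those counts kept it (5.93, adjusted p = 3.6e-08). The counts themselves covered 3 sequence variants of Slc38a4 and could be used by genotype only. The 9 matKO columns held 435 to 1228 Slc38a4 reads with maternal shares of 14.4% to 46.4%, and the 4 CTR columns 359 to 655 reads with shares of 0% to 8.21%. Wilson 95% intervals were 4.62 to 9.04 percentage points wide in matKO and 0.583 to 5.03 in CTR and cover counting error only.

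The share averaged 36.1% ± 9.01 in matKO males (SD, n = 5), against 0.397% ± 0.186 in CTR males (SD, n = 2). In females it averaged 22.2% ± 9.38 in matKO (SD, n = 4) and 3.95% ± 5.58 in CTR (SD, n = 2). Males passed (log2 change 4.57, limma adjusted p = 0.0404, with 0.0517% of genes passing; exact two-sided permutation p = 0.0476, the smallest possible). That call was lost in 13 of 20 alternatives, with adjusted p from 0.00248 to 0.714 over all of them. Among these were the fits without CTR male 1 or 2, matKO male 2, 3, 4 or 5, or matKO female 1, 2 or 3. Females did not pass (2.81, limma adjusted p = 0.0845, where 1.1% of genes passed; exact two-sided permutation p = 0.133). Fitted with autosomal genes alone, where 3 of 9293 genes passed, the female change had an adjusted p of 0.582 (limma). Without CTR female 2 the female change passed (4.15, limma adjusted p = 0.0278). The difference between the sexes was -1.76, female minus male (limma adjusted p = 0.855). Among matKO libraries alone, females were 13.9 percentage points below males (exact two-sided permutation p = 0.0556 over 126 arrangements).

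Across the 9 matKO ExE libraries, total Slc38a4 was highest where the maternal allele was highest. Pearson's r with total RPKM was 0.904 for maternal RPKM (Spearman's rho = 0.917) and 0.330 for paternal RPKM (rho = 0.350). Without the 2 libraries farthest from the median, these r were 0.791 and 0.201. The total holds both alleles, so that some correlation follows from its make-up, and these values are given as descriptions. Their permutation p-values are not printed but count among the 7 relations adjusted together below. Between the maternal and paternal RPKM r was -0.05 (rho = 0.0333).

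In the same libraries, other genes of the H3K27me3-dependent class had higher mean maternal shares than Slc38a4, past the exact test for 3 of 4. Gab1, which encodes a signalling adaptor, averaged 51.9% ± 1.72 in matKO ExE, and Phf17, which encodes a subunit of a histone acetyltransferase complex, averaged 54.4% ± 1.82 (SD, n = 9 each), with Slc38a4 lower in 9 of 9 libraries against each. The differences were -22.03 and -24.5 percentage points, Slc38a4 minus the other gene (exact paired permutation p = 0.00391 for each, the smallest possible; adjusted p = 0.00521 over 4 genes). Smoc1 averaged 53.01% ± 14.3 and gave a difference of -23.1 with the same p, and Sfmbt2 averaged 40.6% ± 19.3 and gave -10.7 (exact paired permutation p = 0.234, lower in 7 of 9). The CTR shares of these genes differed too. They were 12.8% ± 5.21 for Gab1, 34.7% ± 8.95 for Phf17, 12.6% ± 20.6 for Smoc1 and 0.128% ± 0.102 for Sfmbt2 (SD, n = 4 each). As a difference of means, matKO minus CTR, the share was 27.7 percentage points for Slc38a4, 39.1 for Gab1, 19.7 for Phf17, 40.4 for Smoc1 and 40.4 for Sfmbt2, and these differences were not tested against each other. Over these 9 libraries the Slc38a4 share did not follow that of any of the 4 genes past the threshold (Pearson's r from -0.415 to 0.328, Spearman's rho from -0.350 to 0.433, permutation p adjusted over 7 relations from 0.619 to 0.774 for r and from 0.539 to 0.948 for rho). Leaving out the 2 farthest libraries moved these r to between -0.378 and 0.472.

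**Figure D3:**
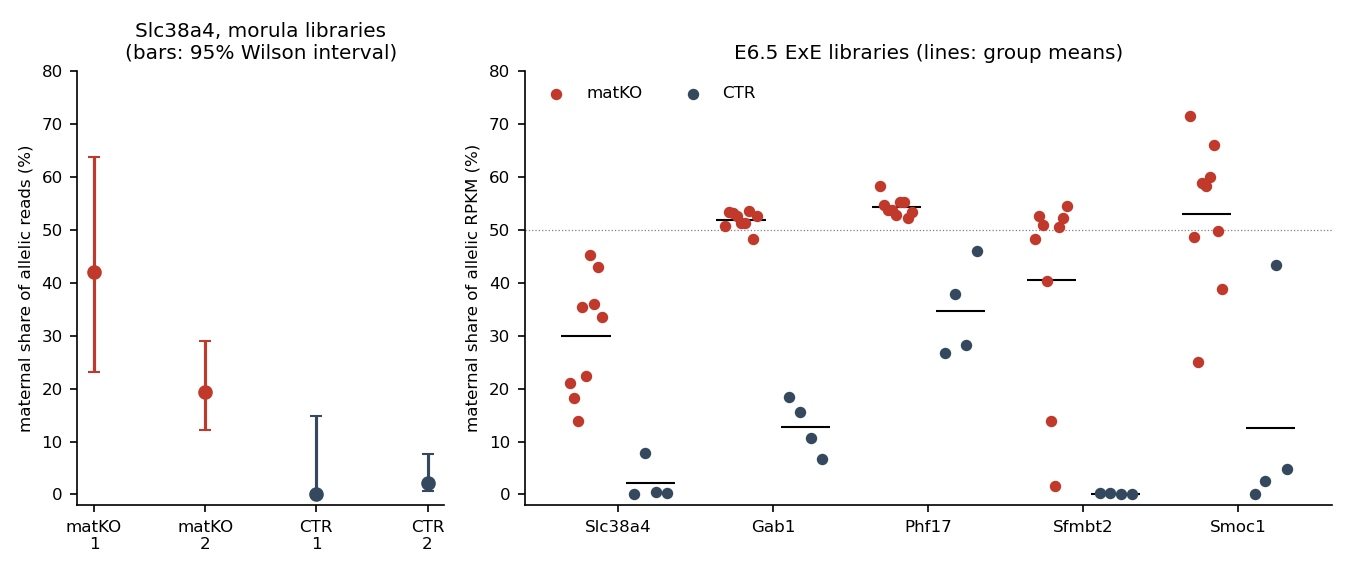
Maternal share of Slc38a4 in each morula library (left, percent of allelic reads with 95% Wilson intervals) and maternal share of allelic RPKM of Slc38a4, Gab1, Phf17, Sfmbt2 and Smoc1 in each E6.5 ExE library (right, percent, lines at group means, dotted line at 50%), with matKO in red and CTR in dark blue. For Slc38a4 all 9 matKO ExE libraries lie between 13.8% and 45.3%, whereas Gab1 lies between 48.3% and 53.5% and Phf17 between 52.3% and 58.4%.

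In morulae the Slc38a4 reads gave the same direction with far fewer reads. The ExE counts covered only 3 sequence variants of Slc38a4, and the number for morulae is not given here. Slc38a4 was the only one of the 3 genes among the 10723 genes of the morula count table. matKO 1 held 8 maternal and 11 paternal reads (42.1% maternal, Wilson 95% interval 23.1% to 63.7%), and matKO 2 held 16 and 67 (19.3%, 12.2% to 29.04%). CTR 1 held 0 maternal and 22 paternal reads (3 reads of 22, the limit that a count of 0 allows, would be 13.6%, and the Wilson bound is 14.9%), and CTR 2 held 2 and 89 (2.198%, 0.605% to 7.66%). The matKO intervals lay above that of CTR 2, while the interval of matKO 2 overlapped that of CTR 1. Summed over libraries, 24 of 102 reads were maternal in matKO (23.5%) and 2 of 113 in CTR (1.77%).

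The change in share was 4.24 on the log2 scale (SE 1.05, unadjusted p = 0.00428) and did not pass (edgeR adjusted p = 0.766), where 0.0254% of 7872 genes passed. It was 6.11 without CTR 2, 5.22 without matKO 2, 3.63 without matKO 1 and 1.91 by limma on allelic RPKM, and it passed in none of the alternatives run (adjusted p 0.0703 to 1). With 2 libraries against 2, an exact two-sided permutation cannot go below p = 0.333, which is what it gave. Scaled to the allelic reads of each library, maternal Slc38a4 was at 2.404 and 3.13 reads per 1000000 in matKO and at 0 and 0.449 in CTR. The paternal allele was at 3.31 and 13.1 in matKO and at 5.68 and 19.97 in CTR, and neither allele passed (log2 3.40, SE 1.25, for the maternal and -0.62, SE 0.84, for the paternal allele, edgeR adjusted p = 1 for each). The morula shares rest on 19 to 91 reads each, and the ExE count columns on 359 to 1228.

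Total Slc38a4 RNA in morulae differed between libraries of the same genotype more than between genotypes. It was at 8.51 and 27.5 RPKM in matKO 1 and 2, against 8.81 and 25.5 RPKM in CTR 1 and 2. The log2 fold change was 0.03 (SE 0.70, limma adjusted p = 1). As a fold this is 1.02, with an approximate 95% interval of 0.387 to 2.69, which includes the fold of 1.47 fitted in ExE. In that fit 0% of 10329 genes passed (limma), while 92 had an unadjusted p under 0.05. Morula and ExE tables were normalized separately, and no test was made between the stages.

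Slc38a1 had a lower level than either neighbour in every ExE library. Its total RNA was at 14.1, 13.3, 14.1 and 17.2 RPKM in matKO females and 17.2, 14.5, 12.1, 22.2 and 20.96 RPKM in matKO males, against 15.002 and 12.5 RPKM in CTR females and 12.8 and 10.3 RPKM in CTR males. matKO males 4 and 5 were highest, and 4 of 9 matKO libraries lay above all CTR libraries. Means were 16.2 ± 3.50 RPKM in matKO (SD, n = 9) and 12.7 ± 1.91 RPKM in CTR (SD, n = 4). The log2 fold change of 0.31 (SE 0.14) did not pass (limma adjusted p = 0.323), and the exact two-sided permutation within sex gave p = 0.0984. Without matKO males 4 and 5 the log2 fold change was 0.20 (limma adjusted p = 0.361).

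The genes whose levels most resembled Slc38a1 over the 13 ExE libraries were Hand1, a transcription factor of trophoblast giant cells (Pearson's r = 0.965 on log2(RPKM + 1), Spearman's rho = 0.940), Aes, a co-repressor of the Groucho family (0.960 and 0.940), and Orai1, a calcium channel (0.952 and 0.967), among 9914 genes compared. Hand1 was at 312 RPKM in matKO male 4, 295 in matKO male 5 and 34.2 to 103 in the other 7 matKO libraries, against 27.9 to 55.3 RPKM in CTR. Hand1 belongs to the 7 listed markers of ectoplacental cone and differentiated trophoblast, which summed to 126 to 1415 RPKM in matKO and 673 to 906 RPKM in CTR. The sum was highest, at 1415 RPKM, in matKO male 1, where Hand1 was at 87.9 RPKM and Slc38a1 at 17.2 RPKM. It was 1175 RPKM in matKO male 4 and 752 RPKM in matKO male 5, the latter within the CTR range. The part of these markers in the level of Slc38a1 was not tested.

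No difference in Slc38a2 was detected in ExE. It was at 60.5, 61.7, 69.3 and 66.2 RPKM in matKO females and 51.4, 53.5, 49.4, 55.7 and 84.4 RPKM in matKO males, against 51.0 and 62.1 RPKM in CTR females and 56.5 and 61.5 RPKM in CTR males. The groups overlapped, and matKO male 5 stood well above the other matKO males. The log2 fold change was 0.08 (SE 0.12, limma adjusted p = 0.795, exact two-sided permutation p = 0.527). As a fold this is 1.06, with an approximate 95% interval of 0.890 to 1.25. Without matKO males 4 and 5 it was -0.0026 (limma adjusted p = 0.989). Its closest genes were Rnft1 (r = 0.938, rho = 0.896), Atp6ap2, a subunit associated with the proton pump of lysosomes (0.920 and 0.868), and Dynlt3, a dynein light chain (0.917 and 0.808).

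In morulae both neighbours were at a few RPKM. Slc38a1 was at 1.45 and 3.29 RPKM in matKO and at 1.81 and 3.74 RPKM in CTR. Slc38a2 was at 3.07 and 3.83 RPKM in matKO and at 1.94 and 3.55 RPKM in CTR. The groups overlapped for both, and neither passed (log2 fold change -0.17, SE 0.44, for Slc38a1 and 0.28, SE 0.35, for Slc38a2, limma adjusted p = 1 for each). As for Slc38a4, the library numbered 2 was the higher of each pair in both genotypes.

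No maternal share can be given for Slc38a1 or Slc38a2. Neither was among the genes of the allelic read count tables. The allelic RPKM of Slc38a2 was listed at 0 for both alleles in all libraries of both stages, although its total exceeded 49 RPKM in every ExE library. For Slc38a1 it was listed at 0 in morulae and was at most 0.283 RPKM per allele in ExE. Allelic values are therefore reported for Slc38a4 alone.

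Over the 13 ExE libraries the level of Slc38a4 was most like M6pr, a mannose 6-phosphate receptor (r = 0.913, rho = 0.934), Acp6, an acid phosphatase (0.910 and 0.929), and Gpi1, a glycolytic enzyme (0.906 and 0.786). None of these differed between genotypes past the threshold (limma adjusted p = 0.124, 0.139 and 0.0857), though their levels were higher in matKO. M6pr ran from 138.6 to 170.8 RPKM in matKO and from 120.6 to 138.3 RPKM in CTR. Acp6 ran from 18.8 to 27.3 and from 14.9 to 18.4, and Gpi1 from 214.9 to 282.4 and from 175.6 to 215.7. With the mean of each genotype and sex removed, their r with Slc38a4 were 0.700, 0.780 and 0.668. The r of Slc38a4 was 0.656 with Slc38a1 (rho = 0.610) and 0.201 with Slc38a2 (rho = 0.110). Slc38a1 and Slc38a2 gave r = 0.271 (rho = 0.0659). These correlations describe libraries that share their genotype groups and carry no test.

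Compared per length, Slc38a4 RPKM was above Slc38a2 RPKM in 12 of 13 ExE libraries, the exception being CTR male 2, and Slc38a2 was above Slc38a1 in all 13. The ratio of Slc38a4 to Slc38a2 ran from 1.26 to 2.49 in matKO and from 0.996 to 1.51 in CTR. In CTR, Slc38a4 (61.3 to 80.96 RPKM) and Slc38a2 (51.0 to 62.1 RPKM) overlapped, and Slc38a1 lay apart from both. In morulae Slc38a4 was highest in all 4 libraries, and Slc38a2 and Slc38a1 were not in a fixed order, since Slc38a1 was higher in CTR 2.

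No gene around the 3 transporters passed. Within 1 Mb of any of them, 18 other genes were listed. In ExE 7 of these were expressed enough to test and 0 passed (limma), beside 0.0504% of all 9915 genes tested. At an unadjusted p under 0.05 there was 1 of the 7, beside 16.1% of all genes. Log2 fold changes ran from -0.25 to 0.16, with a median of -0.08. In morulae 6 were tested and 0 passed (limma), beside 0% of 10329 genes, and 0 had an unadjusted p under 0.05, beside 0.891% of all genes. The nearest expressed gene on one side was Fam113b, 252 kb from Slc38a4, at 3.34 ± 1.73 RPKM in matKO (SD, n = 9) and 2.63 ± 0.457 RPKM in CTR (SD, n = 4; limma adjusted p = 0.737). On the other side, beyond Slc38a1, it was Scaf11, which encodes a splicing-associated protein, at 31.6 ± 1.92 RPKM in matKO and 30.6 ± 1.67 RPKM in CTR (SD, n = 9 and 4; limma adjusted p = 0.795). One neighbour, Tmem106c, had an allelic test in ExE, and its maternal share was 61.5% ± 12.7 in matKO and 53.8% ± 6.74 in CTR (SD, n = 9 and 4; limma adjusted p = 0.701).

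**Figure D4:**
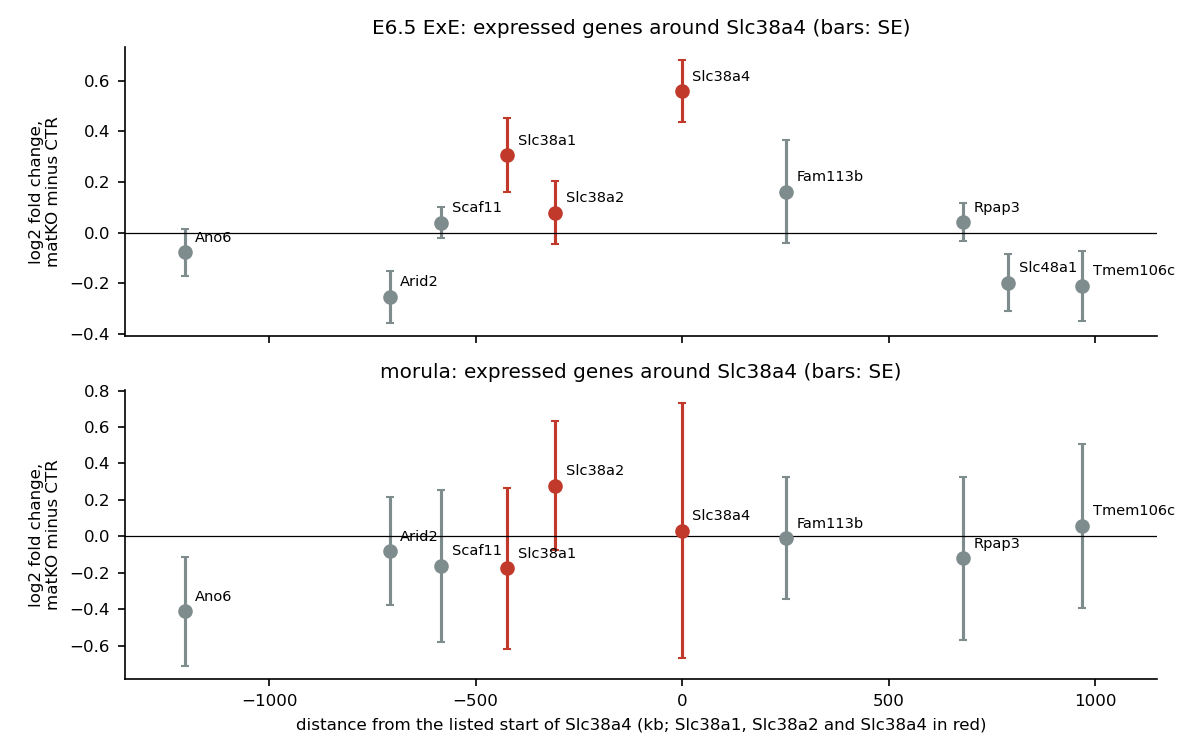
Log2 fold change of total RNA, matKO minus CTR (vertical axes, bars SE), against distance from the listed start of Slc38a4 in kb, for the expressed genes within 1 Mb of the 3 transporters in E6.5 ExE (top) and morulae (bottom), the 3 transporters in red and other genes in grey. In ExE the other genes lie between -0.25 and 0.16 and Slc38a4 is at 0.56, and in morulae all error bars except that of Ano6 include 0.

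Slc38a4 and Slc38a2 were among the most abundant amino acid transporters of ExE. Of the 3 genes and 50 other transporter genes, Slc3a2, the heavy chain shared by several exchangers, was highest in ExE, Slc38a4 ranked 2, Slc38a2 ranked 3 and Slc38a1 ranked 7 by mean RPKM, in matKO as in CTR. Of the 50 others, 13 were expressed enough to test in ExE and 0 passed (limma), beside 0.0504% of all genes. At an unadjusted p under 0.05 there were 3 with a positive and 1 with a negative change, beside 1592 of all 9915 genes (16.1%). Named for these p-values, Slc1a5, a glutamine and neutral amino acid exchanger, was at 20.2 ± 4.26 RPKM in matKO and 14.98 ± 1.60 RPKM in CTR (SD, n = 9 and 4; log2 fold change 0.40, limma adjusted p = 0.220). Slc7a6 and Slc3a2 had log2 fold changes of 0.31 and 0.19 and the taurine transporter Slc6a6 one of -0.27 (limma adjusted p = 0.224 to 0.259). The median log2 fold change of the 13 was 0.18, beside 0.01 for all genes tested. The filter takes the mean over all libraries, of which 9 are matKO and 4 CTR, so it weighs matKO levels more. Slc7a8 (1.92 RPKM in matKO, 0.919 in CTR) passed it, with a log2 fold change of 0.41. Slc1a3 (0.344 and 1.03), Slc1a4 (0.534 and 1.06), Slc16a10 (0.705 and 1.18) and Slc36a4 (0.868 and 1.004) did not. The median and the signs of the 13 may therefore depend in part on the filter. In morulae 14 were tested and 0 passed (limma), beside 0% of all genes. Of these 14, 0 had an unadjusted p under 0.05, beside 0.891% of all genes. Their median log2 fold change was -0.13, beside 0.02.

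**Figure D5:**
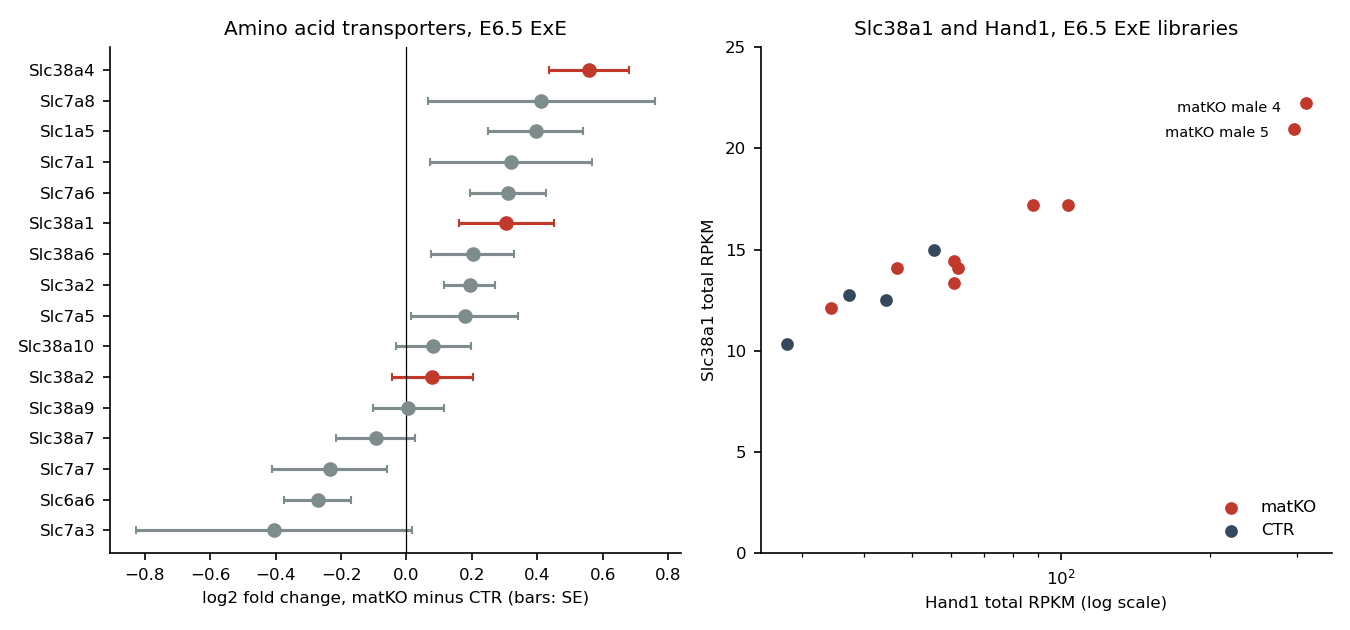
Left, log2 fold change of total RNA in E6.5 ExE, matKO minus CTR, with SE bars, for the 3 Slc38a genes (red) and the 13 other amino acid transporters expressed enough to test (grey); Slc38a4 is at the top with 0.56 and Slc7a3 at the bottom with -0.41. Right, Slc38a1 total RPKM against Hand1 total RPKM (log axis) in each ExE library, matKO in red and CTR in dark blue; matKO males 4 and 5 are highest in both genes, at 22.2 and 20.96 RPKM of Slc38a1.

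Genes of the amino acid response, in which the transcription factor Atf4 raises transporters and synthesis enzymes when amino acids are short, did not pass either. Of 30 such genes 28 were tested in ExE and 0 passed (limma), beside 0.0504% of all genes. At an unadjusted p under 0.05 there were 4 with a positive and 0 with a negative change, a share near the 16.1% of all genes. The median log2 fold change was 0.05, beside 0.01 for all genes. Named for these p-values, the leucine sensor Sesn2 was at 4.55 ± 1.13 RPKM in matKO and 2.76 ± 0.543 RPKM in CTR (SD, n = 9 and 4; log2 fold change 0.53, limma adjusted p = 0.123). Asparagine synthetase, Asns, was at 305 ± 47.2 RPKM in matKO and 253 ± 19.96 RPKM in CTR (SD, n = 9 and 4; 0.27, limma adjusted p = 0.241). Eif4ebp1 and Phgdh had log2 fold changes of 0.29 and 0.30 (limma adjusted p = 0.136 and 0.265). In morulae 25 were tested and 0 passed (limma), beside 0% of all genes. Of these 25, 0 had an unadjusted p under 0.05, beside 0.891% of all genes. Their median log2 fold change was 0.25, beside 0.02.

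The authors' deposited tables of changed genes hold 178 and 270 genes for morulae and 154 and 400 for ExE females and males. None of the 3 transporters is in them. Every gene in the authors' deposited tables had an absolute log2 fold change above 1.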

How the data were processed

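RNA-seq of 17 libraries was used, and the CUT&RUN data (2 samples) are not analysed here. Per the labels' protocols, lysates were amplified with a SMARTer kit and made into Nextera XT libraries. The submitters' processing notes name HISAT2 2.1.0, Cufflinks 2.2.1 and mm9, without roles. The step that gave reads to alleles is not given in the sources used here. The authors deposited total and allelic RPKM, allelic read counts over sequence variants, and log2 fold changes of the genes they called changed. Left unused were 21 per-sample columns. Only 3 of 13 ExE count columns resembled most the total RPKM of the library they are named for, though each resembled one of its own genotype. ExE shares therefore come from allelic RPKM, and ExE counts were used by genotype.

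The limma 3.58.1 package (trend, R 4.3.3) was run on log2(RPKM + 1) of genes averaging at least 1 RPKM, with ExE contrasts averaged over the sexes. For ExE alleles it was run on log2((maternal + 1)/(paternal + 1)) and on each allele. Morula counts went into edgeR 4.0.16 (library as a block, at least 20 allelic reads on average). P-values were adjusted over all genes with a threshold of 0.05. Folds and their 95% intervals are on the log2(RPKM + 1) scale and understate changes of low genes. The intervals of folds use a fixed multiple of the SE, so they are approximate and somewhat too narrow with this few libraries. Exact tests permuted genotypes within sex. The code was tested on simulated data. Other values and figures used Python 3.11.15 with scipy 1.17.1, numpy 2.4.6, pandas 2.3.3 and matplotlib 3.10.9.

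Members, lists and tests were chosen with earlier results of these data known. Named genes were the 3 transporters, the nearest expressed neighbour on each side, the 3 most correlated genes for each, 4 genes of the imprinted class, Eed, and list genes that passed. Tmem106c, markers and list genes named for unadjusted p-values were chosen after their values were seen. Libraries of a group may share a litter, so p-values measure the spread between libraries, which may be technical. Alternatives were another pseudocount (0.1), filter (none, 5 RPKM or 50 reads), scaling or trend setting, DESeq2 1.42.0, a replicate block, and each library left out. Excluding matKO males 4 and 5 and fitting autosomal genes alone were added after seeing the data.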

Additional observations from a re-analysis of the deposited data

Results flagged for a closer look

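The total RPKM of Slc38a2 in matKO male 5 was 84.4 in ExE, far from the other 4 matKO males (49.4 to 55.7 RPKM). Its gap to the nearest of them was a larger part of the group's range than a check for single distant samples allows. Of 12 groups checked for the 3 transporters this was 1, and chance alone gives such a gap in about 1 in 20 groups. The same library had the visceral endoderm marker sum of 66.2 RPKM and Esrrb at 3.77 RPKM. Their part in the value was not tested. Of 6 differences between the sexes tested for them, none passed (limma, smallest adjusted p = 0.855).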

How the results depend on the processing

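The rise of maternal Slc38a4 in ExE kept its direction in every alternative run. For its share, changes without single libraries ran from 3.01 to 4.36 on the log2 scale, and pseudocount 0.1 gave 5.54. Counting with edgeR by genotype gave 4.76 (adjusted p = 0.0664). The labels do not say that replicate numbers mark shared animals, and deviations of same-numbered ExE libraries correlated between -0.06 and 0.06. With the replicate block the share changed by 3.54 (limma adjusted p = 0.435) and the maternal allele by 3.57 (0.317), both past the threshold without it, and total Slc38a2 by -0.025. Total Slc38a4 in morulae stayed at 0.03 with the block, with an SE of 0.26 in place of 0.70 (limma adjusted p = 0.999). In morulae, where only 2 pairs exist (r = 0.702), the block raised the count of genes called on totals to 164 (limma), against 0, with none of the 3 transporters among them. Total Slc38a4 in ExE passed in none of 21 alternatives (limma adjusted p 0.0515 to 0.461).

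Several small changes turned sign. Total Slc38a4 in morulae was -0.0085 with quantile scaling, and ran from -0.76 to 0.82 without single libraries. Without single libraries, Slc38a1 in morulae ran from -0.58 to 0.23 (0.20 without CTR 2), Slc38a2 in morulae from -0.038 to 0.59, paternal Slc38a4 in ExE from -0.0059 to 0.12 and in morulae from -1.95 to 0.56 (0.03 without matKO 1). Slc38a2 in ExE was -0.0026 without matKO males 4 and 5. Counts of genes called over all alternatives were 3 to 69 (5 as reported) for ExE totals, 0 to 27 (17) for ExE shares, 1 to 31 (16) for the maternal and 0 to 191 (99) for the paternal allele in ExE, 0 to 123 (2) for morula shares and 0 to 164 (0) for morula totals. The causes were not tested. Read depth limits the morula shares, and 2 CTR libraries per sex limit the comparisons by sex.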
